A study of Drosophila melanogaster with 9 samples.

Results

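The UDP-glycosyltransferases (UGTs) and the glutathione S-transferases (GSTs) of the fly head were followed through the day on Affymetrix expression arrays. A gene was a member if its current or platform symbol was Ugt followed by digits, or Gst followed by a class letter and an optional number. The array named 69 such genes, 35 UGTs and 34 GSTs, of 11982 genes named in all, and each gene was read from the probe set with the highest mean over the arrays. RNA came from Drosophila melanogaster heads, the strain being given only as 5073, sampled at 6 zeitgeber times (ZT, hours after lights-on) spaced 4 h apart. The 9 arrays were 3 at ZT3, 1 at ZT7, 1 at ZT11, 2 at ZT15, 1 at ZT19 and 1 at ZT23. The labels give no genotype beyond the strain number, no treatment, sex, age or light schedule, and do not say whether arrays of one time came from separate flies, so p-values measure the spread between these arrays, which may be technical.

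UGTs join a sugar to small fat-soluble molecules, and GSTs join them to the tripeptide glutathione; both steps make hormones, odorants, plant toxins and insecticides easier to excrete. Insect UGTs mostly take the sugar from UDP-glucose, whereas those of mammals mostly take glucuronic acid. In flies both families are made in fat body, gut and Malpighian tubules, and some members are made in the antennae, where enzymes of this kind are thought to clear odorants. Delta and epsilon GSTs, named GstD and GstE, are the insect detoxification classes, while omega (GstO), sigma (GstS), theta (GstT) and zeta (GstZ) GSTs are also found in other animals.

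Levels are log2 values of the authors' GCRMA method, so a difference of 1 is a doubling, and levels of different probe sets were not compared with each other. Of the 69 genes, 50 reached a level of 5 on at least 2 arrays and were tested, 19 of the 35 UGTs and 31 of the 34 GSTs. Ugt37A3 and GstE4 passed only through ZT3 replicate 1 and ZT15 replicate 2. GstD8 too would not have passed without these arrays, since of the others only ZT23 reached 5 (5.47). The probe sets of Ugt36E1, Ugt37D1, Ugt50B3 and GstS1 are of a type that can match transcripts of more than 1 gene. Genes are called changed where limma's p, adjusted by Benjamini-Hochberg over 12105 probe sets, was under 0.05.

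The arrays fell into 2 sets that cross the times. ZT3 replicate 1 and ZT15 replicate 2 correlated with each other at 0.988 over all probe sets, and with the other 7 arrays at 0.752 to 0.905, while the other 7 correlated with each other at 0.915 or more. All 4 antenna markers (lush, Obp19d, Obp83b and Orco) were higher on these 2 arrays than on all 7 others. Obp19d differed least, at 15.44 and 15.53 on the 2 arrays and between 14.46 and 14.88 on the other 7. Orco, the shared olfactory co-receptor, was at 10.28 and 10.23 on the 2 arrays and between 3.99 and 5.37 on the other 7. Of 22 testis and accessory gland markers, 21 were lower on both arrays, with medians of 3.57 and 3.44 against 9.64 to 11.60 on the others. Gut markers had a median of 6.12 and 4.12 on the 2 arrays, 5.69 and 5.51 on ZT3 replicates 2 and 3, and 9.53 to 10.86 on the remaining 5. The testis and accessory gland median was 9.73 and 9.64 on ZT3 replicates 2 and 3, and 10.80 to 11.60 on those 5. The spike-in control BioB read 9.18 and 9.14 on the 2 arrays, 8.82 and 7.99 on ZT3 replicates 2 and 3, and 7.23 to 7.83 on those 5. Eye markers were at a median of 13.13 to 13.93 and fat body markers at 14.47 to 14.92 on all 9 arrays. Some single markers were less even. In the fat body list Lsp2 ran from 10.46 to 14.49, whereas Yp1 ran from 15.56 to 15.91. In the eye list rdgA ran from 9.98 to 11.42, inaC from 12.14 to 12.98, inaD from 12.22 to 13.07 and trpl from 13.13 to 13.93. The eye marker trp ran from 14.36 to 14.82. On both ZT15 arrays inaC, inaD, trpl and Arr2 were lower than on every ZT3 array, whereas Arr1, trp and rdgA were not. The labels name no such split, so results are given over all 9 arrays, with a term for these 2 arrays in the model (the 2-array block), and within each set of arrays. Testis, accessory gland and gut are not parts of the head, and the labels do not say how their transcripts came into head samples. Fewer cells of a body part and less RNA per cell cannot be told apart in such samples.

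The morning group held the members with the clearest daily course, the UGTs Ugt35B1 and Ugt36F1 and the zeta-class GstZ2. With the 2-array block, 3 of the 50 tested members were called rhythmic over 24 h, 2 UGTs and 1 GST, against 0.248% of all tested probe sets. Without the block no member was called, where 4 of 12105 probe sets (0.033%) were. With the 2 arrays left out, the same 3 members were called, beside 0.562% of all tested probe sets. Outside the 2 arrays, ZT3 replicates 2 and 3 also differed from the rest in gut and testis markers, which the block does not model. For members high at ZT3, time and array content therefore cannot be told apart there, and the part of tissue was not tested.

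Ugt35B1, first described as Ugt35b and reported from antennae in other work, was at 12.95, 12.01 and 11.97 on the 3 ZT3 arrays, at 11.34 at ZT7 and at 10.33 at ZT11. It was at 9.82 and 11.49 on the 2 ZT15 arrays, at 10.24 at ZT19 and at 11.20 at ZT23. Within the 7 arrays that resembled each other, the lowest value was thus at ZT15 and both highest at ZT3, and the 2 arrays apart lay above the others of their time. The fitted amplitude, which is the distance from the mean of the 24 h curve to its peak, was 0.96 ± 0.078 (SE) with the block, a 3.78-fold span from trough to peak, with the peak at ZT3.27 ± 0.432 h (limma adjusted p = 0.0198). Over all 9 arrays without the block the amplitude was 0.91 with the same peak hour (adjusted p = 1.00).

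GstZ2 was at 9.29, 8.54 and 8.51 at ZT3, 8.27 at ZT7, 7.32 at ZT11, 6.85 and 8.01 at ZT15, 7.28 at ZT19 and 8.26 at ZT23. Among the 7 arrays it was highest at ZT3 and lowest at ZT15, and of the 2 arrays apart the ZT15 one was the lower. Its amplitude with the block was 0.78 ± 0.059 (SE), a 2.96-fold span, with the peak at ZT3.07 ± 0.404 h (limma adjusted p = 0.0151). Without the block the amplitude was 0.75 (adjusted p = 0.927).

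Ugt36F1 was at 8.58, 7.79 and 7.84 at ZT3, 7.18 at ZT7, 6.70 at ZT11, 6.59 and 7.86 at ZT15, 7.11 at ZT19 and 7.76 at ZT23. At ZT23 it already read close to its morning level, and its fitted peak was at ZT1.08 ± 0.485 h. The amplitude with the block was 0.59 ± 0.063 (SE), a 2.28-fold span (limma adjusted p = 0.0430), and 0.56 without it (adjusted p = 1.00). These 3 calls depended on single arrays. In 9 fits with the block that each left out 1 array, all 3 were lost without ZT3 replicate 2, ZT3 replicate 3, ZT11, ZT15 replicate 1, ZT19 or ZT23, and those of Ugt35B1 and Ugt36F1 also without ZT7. The adjusted p rose to 0.163 at most for Ugt35B1, 0.201 for Ugt36F1 and 0.128 for GstZ2. The amplitude stayed between 0.92 and 1.08 for Ugt35B1, 0.57 and 0.67 for Ugt36F1, and 0.75 and 0.86 for GstZ2.

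**Figure D1:**
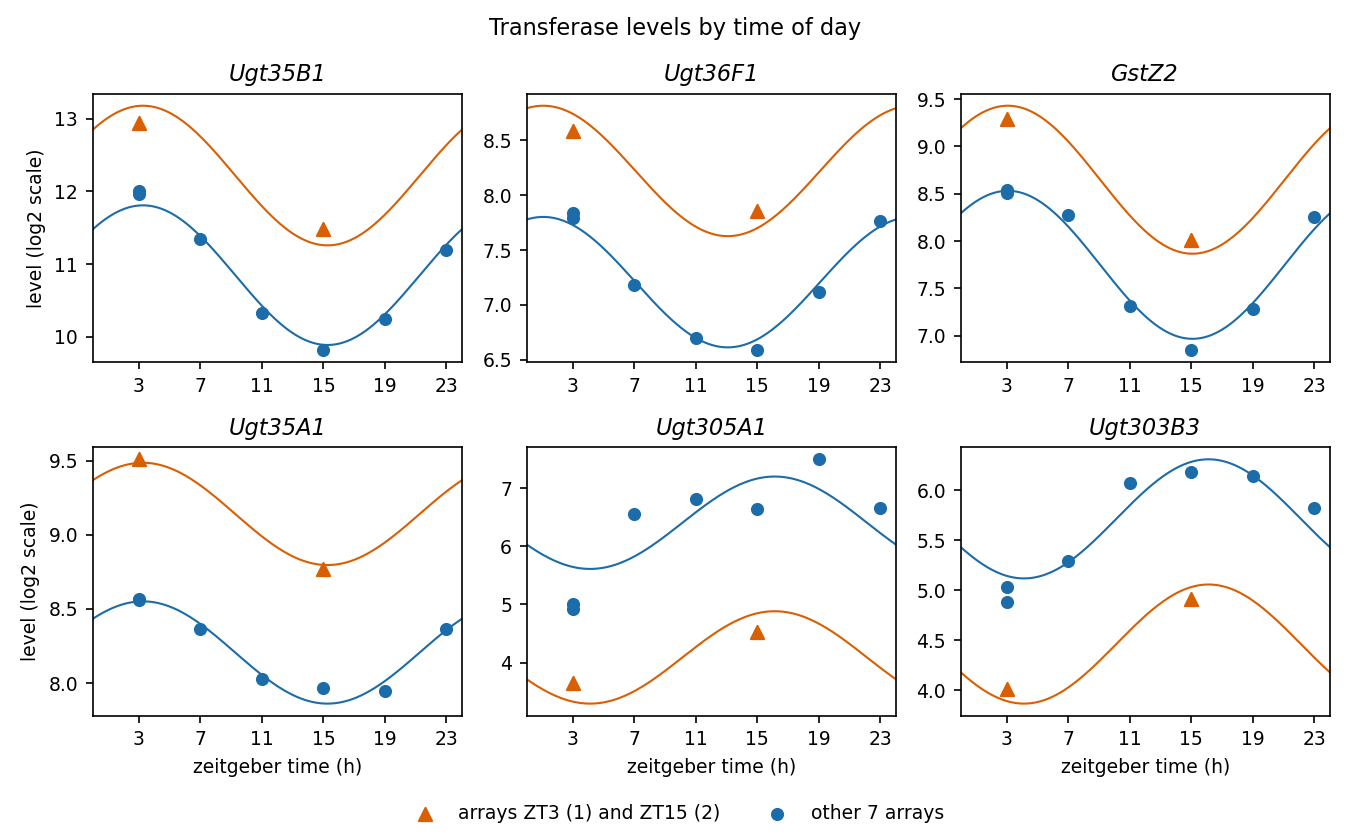
Level on the log2 scale (y axis) against zeitgeber time in hours (x axis) for 6 transferases. Triangles are ZT3 replicate 1 and ZT15 replicate 2, circles are the other 7 arrays, and lines are the fitted 24 h curves with the 2-array block; Ugt35B1, Ugt36F1, GstZ2 and Ugt35A1 were lowest at ZT15 or ZT19 among the circles, and Ugt305A1 and Ugt303B3 were lowest at ZT3.

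With the block no other member passed the adjusted threshold, although the amplitudes of GstD2 and Ugt305A1, 0.80 for both, were above that of GstZ2. An unadjusted p under 0.05 for the 24 h rhythm with the block was reached by 22 of 50 members (44%), 11 UGTs and 11 GSTs, against 16.9% of all tested probe sets; over all 9 arrays without the block it was reached by 5 (10%), against 4.33%. Of those 22, 13 (59.1%) had their fitted peak from ZT0 to ZT6, where 31.7% of the probe sets past the same p peaked. The other peaks were 2 from ZT6 to ZT12, 3 from ZT12 to ZT18 and 4 from ZT18 to ZT24. All these members share the same 9 arrays, so their counts are not independent of each other. Leaving out Ugt37A3 and GstE4, which reached the filter level on the 2 arrays apart alone, kept that count at 22, of 48. GstD8, which reached it on those arrays and ZT23, stayed in the 48 and was not among the 22.

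**Figure D2:**
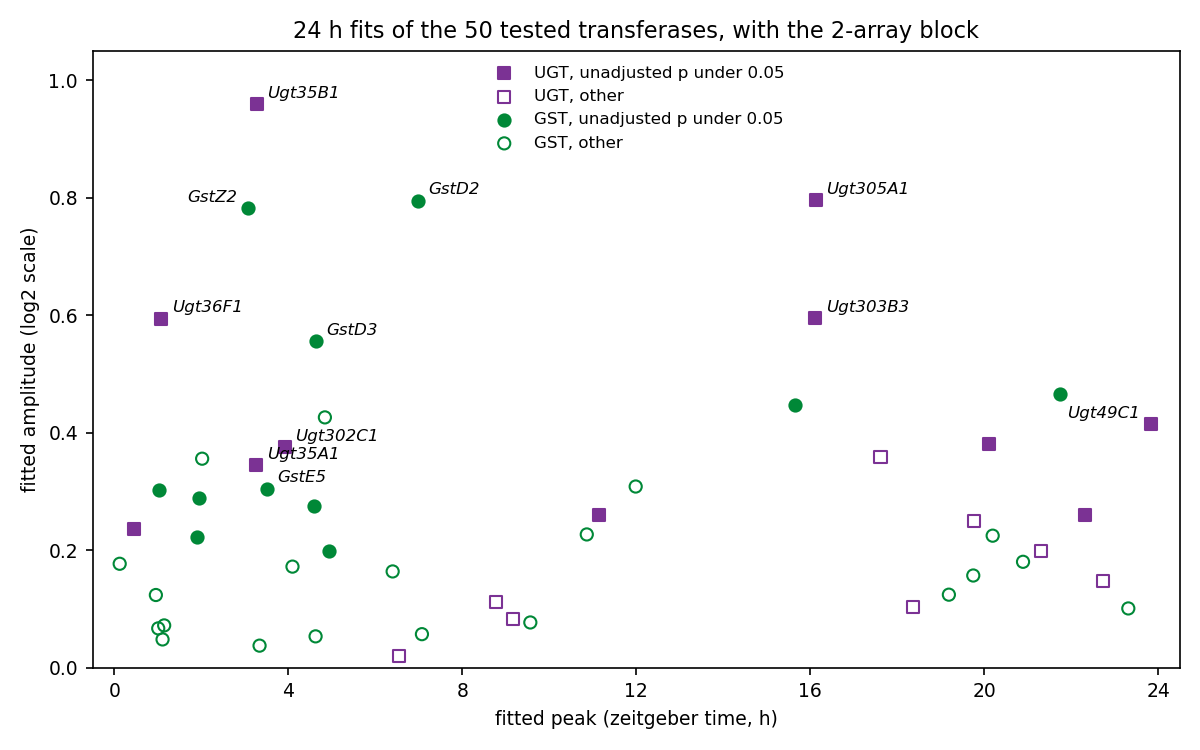
Fitted amplitude on the log2 scale (y axis) against fitted peak in hours of zeitgeber time (x axis) for the 50 tested transferases, with the 2-array block. Squares are UGTs and circles GSTs, and filled symbols have an unadjusted p under 0.05; Ugt35B1 has the highest amplitude, 0.96, and 13 of the 22 filled symbols lie between ZT0 and ZT6.

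Near Ugt35B1 on chromosome 3R stood its relatives Ugt35A1 and Ugt302C1, in a run of 10 UGT genes with 3 other protein-coding genes among them. Ugt35A1 was at 9.51, 8.57 and 8.56 at ZT3, 8.36 at ZT7, 8.03 at ZT11, 7.97 and 8.77 at ZT15, 7.94 at ZT19 and 8.36 at ZT23. Ugt302C1 was at 11.46, 10.92 and 10.78 at ZT3, 10.72 at ZT7, 10.32 at ZT11, 10.13 and 10.79 at ZT15, 10.15 at ZT19 and 10.57 at ZT23. Both were highest at ZT3 and lowest at ZT15 or ZT19 within the 7 arrays, with amplitudes with the block of 0.34 (limma adjusted p = 0.0604) and 0.38 (adjusted p = 0.0545), and fitted peaks at ZT3.26 and ZT3.92. In that run 4 of the 10 genes passed the filter, 3 had an unadjusted p under 0.05 (against the 16.9% of all tested probe sets given above) with a morning peak, and the fourth, Ugt35C1, ran between 6.92 and 7.87 with no such course (unadjusted p = 0.422).

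Ugt49C1, on another chromosome, was at 10.72, 9.65 and 9.54 at ZT3, 9.32 at ZT7, 9.01 at ZT11, 9.11 and 10.10 at ZT15, 9.47 at ZT19 and 9.91 at ZT23. Among the 7 arrays it was highest at ZT23 and lowest at ZT11, with a fitted peak at ZT23.8 and an amplitude of 0.41 (limma adjusted p = 0.0760). Ugt49B1 (amplitude 0.26, peak at ZT22.3, adjusted p = 0.181) and GstZ1 had late-night peaks as well. GstZ1 was at 8.90, 8.48 and 8.37 at ZT3, 8.15 at ZT7, 7.71 at ZT11, 8.28 and 8.93 at ZT15, 8.61 at ZT19 and 8.83 at ZT23. Its lowest array was therefore ZT11 and not ZT15, and its fitted peak at ZT21.7 ± 0.51 h lay earlier than that of its relative GstZ2 (amplitude 0.47, limma adjusted p = 0.148). The difference in phase between GstZ1 and GstZ2 was not tested.

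Most of the delta and epsilon GSTs sit in 2 gene runs, and no gene of either class was called rhythmic with the block. The epsilon run on chromosome 2R held 10 genes with no other protein-coding gene among them, of which 9 were tested (GstE8 was not analysed here). Of the 8 apart from GstE4, 7 (87.5%) had a lower fitted value at ZT15 than at ZT3 with the block, where 63.7% of all tested probe sets had, with a median difference of -0.41 against -0.07. A rhythm p under 0.05, unadjusted, was reached by 5 of the 8, against 16.9% of all tested probe sets, and 4 of these had a morning peak. GstE5 had the smallest p among them: it was at 9.84, 8.61 and 8.57 at ZT3, 8.49 at ZT7, 8.24 at ZT11, 8.03 and 9.25 at ZT15, 8.03 at ZT19 and 8.55 at ZT23. Its amplitude with the block was 0.31, with a peak at ZT3.50 (limma adjusted p = 0.0936). GstE3 followed with 0.29 and a peak at ZT1.94 (adjusted p = 0.112). The 4 epsilon genes outside the run, GstE11 to GstE14, differed by -0.13 to 0.09 between ZT15 and ZT3 with the block, and none had an unadjusted p under 0.05 for the rhythm.

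The delta run on chromosome 3R held 11 genes, all with a probe set and 8 of them tested, and 7 of the 8 (87.5%) had a lower fitted value at ZT15 with the block, again beside 63.7% of all tested probe sets, with a median difference of -0.41 against -0.07. One of the 7, GstD5, differed by only -0.0075. The gene outside the 7, GstD8, differed by 0.16. It reached the filter level on the 2 arrays apart and at ZT23 (5.47), would not have passed without those 2, and is kept in this count and median. GstD3 was at 9.92, 9.65 and 9.38 at ZT3, 9.70 at ZT7, 8.96 at ZT11, 8.77 and 9.01 at ZT15, 8.33 at ZT19 and 9.53 at ZT23. Among the 7 arrays it was high from ZT23 to ZT7 and low from ZT11 to ZT19, and on the 2 arrays apart it was lower at ZT15, with an amplitude of 0.56 and a peak at ZT4.63 (limma adjusted p = 0.160). GstD1, which can break down DDT, ran in a narrower band, from 13.52 at ZT19 to 14.14 on ZT3 replicate 1 (amplitude 0.20, adjusted p = 0.223). GstD2 had an amplitude of 0.80 (adjusted p = 0.261), and of 0.43 without the ZT7 array, which read 8.96 against 6.57 to 8.35 on the other 8. GstD9 was between 9.93 and 10.84 on all arrays (amplitude 0.30, peak at ZT1.03, adjusted p = 0.272). The single ZT7 array was also the highest of the 9 for GstE7, at 9.75 against 8.23 to 9.28.

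ZT15 and ZT3 were the only times with more than 1 array. In that comparison limma called no member, with the block or without it, and none of all 12105 probe sets (0.0% in each case). Without the block 2 members (4%) had an unadjusted p under 0.05, both GSTs and both lower at ZT15, against 2.35% of all tested probe sets. These were GstD3, at 8.89 ± 0.17 at ZT15 and 9.65 ± 0.27 at ZT3 (SD, n = 2 and 3; difference -0.76), and GstZ2, at 7.43 ± 0.82 and 8.78 ± 0.44 (difference -1.35, limma adjusted p = 1.00 for both). Ugt35B1 had the widest gap of the tested members, with a mean of 10.66 ± 1.18 at ZT15 and 12.31 ± 0.55 at ZT3 (difference -1.65, limma adjusted p = 1.00). The SDs of these groups hold the split between the arrays, since each group has 1 array of the 2 that stood apart.

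With the 2-array block, 16 members (32%) were lower at ZT15 with an unadjusted p under 0.05, 5 UGTs and 11 GSTs, against 6.23% of all tested probe sets. In the other direction 3 members (6%) were higher, against 5.76%. The 5 UGTs were Ugt302C1, Ugt35A1, Ugt35B1, Ugt36F1 and Ugt49C1, and the GSTs were GstZ2, GstD1, GstD2, GstD3, GstD9, GstD10, GstE1, GstE2, GstE3, GstE5 and GstE7. The median difference over the 50 members was -0.09, against -0.07 over all tested probe sets. Leaving out Ugt37A3 and GstE4 kept the 16 lower members, of 48, with a median difference of -0.10. Ugt35B1 differed by -1.86 ± 0.203 (SE), 3.63-fold lower at ZT15, and GstZ2 by -1.51 ± 0.142, 2.84-fold lower (limma adjusted p = 0.192 and 0.177). Ugt36F1 was 2.02-fold lower at ZT15 (-1.01 ± 0.160, adjusted p = 0.216). With the block and without ZT3 replicate 1 or ZT15 replicate 2, or with both left out, the fit called 11 members, beside 18.1% of all tested probe sets. These fits rest on 1 array at ZT15, and their 1 residual degree of freedom is the spread between ZT3 replicates 2 and 3 alone. The 11 were Ugt302C1, Ugt303B3, Ugt305A1, Ugt35A1, Ugt35B1, Ugt36F1, Ugt50B3, GstD2, GstE10, GstT4 and GstZ2. Without ZT15 replicate 1 the fit with the block called 1, Ugt35B1, beside 0.859% of all tested probe sets, again on 1 residual degree of freedom.

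The sets of arrays can also be read one by one. ZT15 minus ZT3 was -1.46 on the 2 arrays apart and -2.17 on the others for Ugt35B1, on the log2 scale. It was -1.28 on the 2 arrays and -1.68 on the others for GstZ2, and -0.73 and -1.22 for Ugt36F1. Of the 50 members, 22 (44%) were lower at ZT15 in both sets and 11 (22%) higher in both, where 34.4% and 18.5% of all tested probe sets were. Ugt37A3 and GstE4, which passed the filter through the 2 arrays apart alone, were in neither count. GstD8, which would not have passed without those arrays, was among the 11. Within the 2 arrays apart there is 1 array a time, so these differences have no replicate check.

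**Figure D3:**
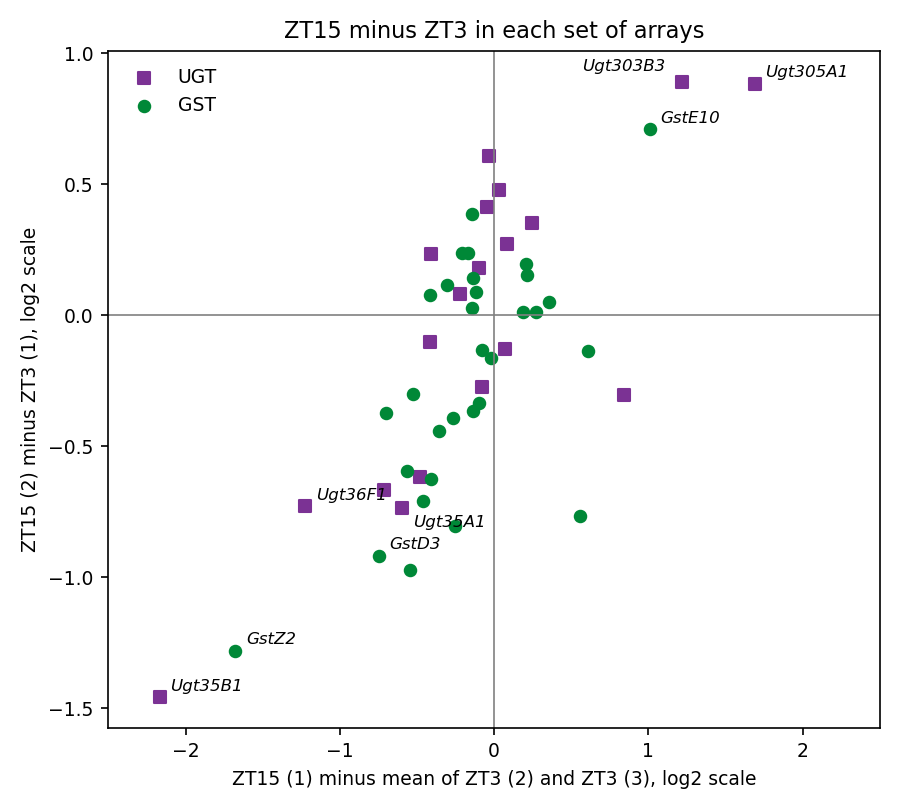
Difference of ZT15 minus ZT3 on the log2 scale in the 2 arrays that stood apart (y axis, 1 array a time) and in the other arrays of those times (x axis) for the 50 tested transferases, with UGTs as squares and GSTs as circles. Of the 50, 22 lie below 0 on both axes, with Ugt35B1 and GstZ2 farthest out, and 11 lie above 0 on both, with Ugt303B3, Ugt305A1 and GstE10 farthest out. The y values of Ugt303B3 and Ugt305A1 come from readings under the filter level of 5.

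A pair of UGTs and 1 epsilon GST ran the other way, with their lowest levels at ZT3 within each set of arrays. For Ugt305A1 and GstE10 the high stretch did not end at ZT19, since they were at 6.67 and 7.66 at ZT23. Ugt305A1 was already at 6.56 at ZT7. Ugt303B3 was at 4.02, 5.04 and 4.88 at ZT3, 5.30 at ZT7, 6.07 at ZT11, 6.18 and 4.91 at ZT15, 6.15 at ZT19 and 5.82 at ZT23. Ugt305A1 was at 3.65, 4.91 and 5.0 at ZT3, 6.56 at ZT7, 6.81 at ZT11, 6.65 and 4.53 at ZT15, 7.5 at ZT19 and 6.67 at ZT23. GstE10 was at 5.02, 6.96 and 6.58 at ZT3, 7.17 at ZT7, 7.79 at ZT11, 7.78 and 5.73 at ZT15, 7.57 at ZT19 and 7.66 at ZT23. In all 3 genes the ZT3 array was the lower one in both sets, and the 2 arrays apart read below the others of the same time. With the block the difference of ZT15 from ZT3 was 1.08 ± 0.139 (SE) for Ugt303B3, a 2.11-fold higher level at ZT15, 1.34 ± 0.225 for Ugt305A1, 2.54-fold, and 0.88 ± 0.176 for GstE10, 1.84-fold (limma adjusted p = 0.192, 0.232 and 0.281). On the 2 arrays apart every reading of the 2 UGTs lies under the filter level of 5, at ZT15 as at ZT3. Other ZT3 readings under it are 4.88 for Ugt303B3 and 4.91 for Ugt305A1. These folds are therefore not exact, and the order of ZT3 and ZT15 on the 2 arrays apart is not secure for the 2 UGTs.

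Fitted peaks with the block were at ZT16.1 for Ugt303B3 (amplitude 0.59, limma adjusted p = 0.0930), at ZT16.1 for Ugt305A1 (0.80, adjusted p = 0.292) and at ZT15.7 for GstE10 (0.45, adjusted p = 0.222). The median of the testis and accessory gland markers had a like order over the arrays: 3.57, 9.73 and 9.64 at ZT3, 10.91 at ZT7, 11.60 at ZT11, 11.53 and 3.44 at ZT15, 11.54 at ZT19 and 10.80 at ZT23. That of the gut markers was 6.12, 5.69 and 5.51 at ZT3, 9.53 at ZT7, 10.72 at ZT11, 10.86 and 4.12 at ZT15, 10.42 at ZT19 and 9.88 at ZT23. Both medians were low where these 3 genes were low, and the part of gut tissue was not tested. With the testis median as a covariate in place of the block, 5 members were called rhythmic, Ugt303B3, Ugt302C1, Ugt35B1, Ugt36F1 and GstZ2, beside 0.562% of all tested probe sets; Ugt305A1 was not called (adjusted p = 0.287).

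Some members differed between the 2 arrays apart and the other 7, which is given without a test because those arrays were set apart by their values. Over all 69 genes, 30 (43.5%), 13 UGTs and 17 GSTs, were higher on both arrays than on all 7 others, against 32.5% of all 18769 probe sets. The 30 include GstD4, GstD6 and Ugt35E1, which did not pass the filter and read at most 3.23. Another 3 (4.35%), 2 UGTs and 1 GST, were lower on both, against 11.9%, and 36 overlapped. GstE4 was at 11.22 on ZT3 replicate 1 and 11.46 on ZT15 replicate 2, and between 4.07 and 4.46 on the other 7, all under the filter level of 5. With those 7 readings set to 5, its mean was at least 80.8-fold higher on the 2 arrays. A course over the day cannot be read from levels that low, and the 2 arrays cover 2 times with 1 array each.

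GstD11 was at 8.88 and 8.96 on the 2 arrays, against 4.98 to 5.81 on the others, 12.1-fold higher. GstD8 was at 7.71 and 7.72, against 3.83 to 5.47, at least 6.26-fold higher with the 6 readings under 5 set to 5. Other higher members were closer: Ugt49C1 was 1.97-fold, Ugt36F1 1.92-fold, Ugt35A1 1.85-fold and GstE5 2.27-fold higher, and GstE14, the ecdysone-pathway enzyme Noppera-bo, 1.89-fold. Over all tested probe sets the median difference of the 2 arrays from the others was 0.20 on the log2 scale, and these folds are not adjusted for it. The lower members were GstE10, 3.94-fold lower on the 2 arrays, Ugt305A1, at least 2.46-fold lower with its readings there (3.65 and 4.53) set to 5, and Ugt303A1, which did not pass the filter. Ugt36E1, which acts in olfactory neurons, was at 7.48 and 7.71 on the 2 arrays, only just above the 7.04 to 7.47 of the others.

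Among the antenna markers, Obp83b was at 14.05 and 14.16 on the 2 arrays and at 3.92 to 6.24 on the other 7, and lush at 11.62 and 11.55 against 4.37 to 5.42. GstE4, GstD11 and GstD8 shared this division, in which no array of one set came near the other. Spineless (ss), a regulator of antennal identity, was at 8.17 and 8.16 on the 2 arrays, against 4.43 to 5.18. The part of antennal tissue in the levels of these GSTs was not tested.

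**Figure D4:**
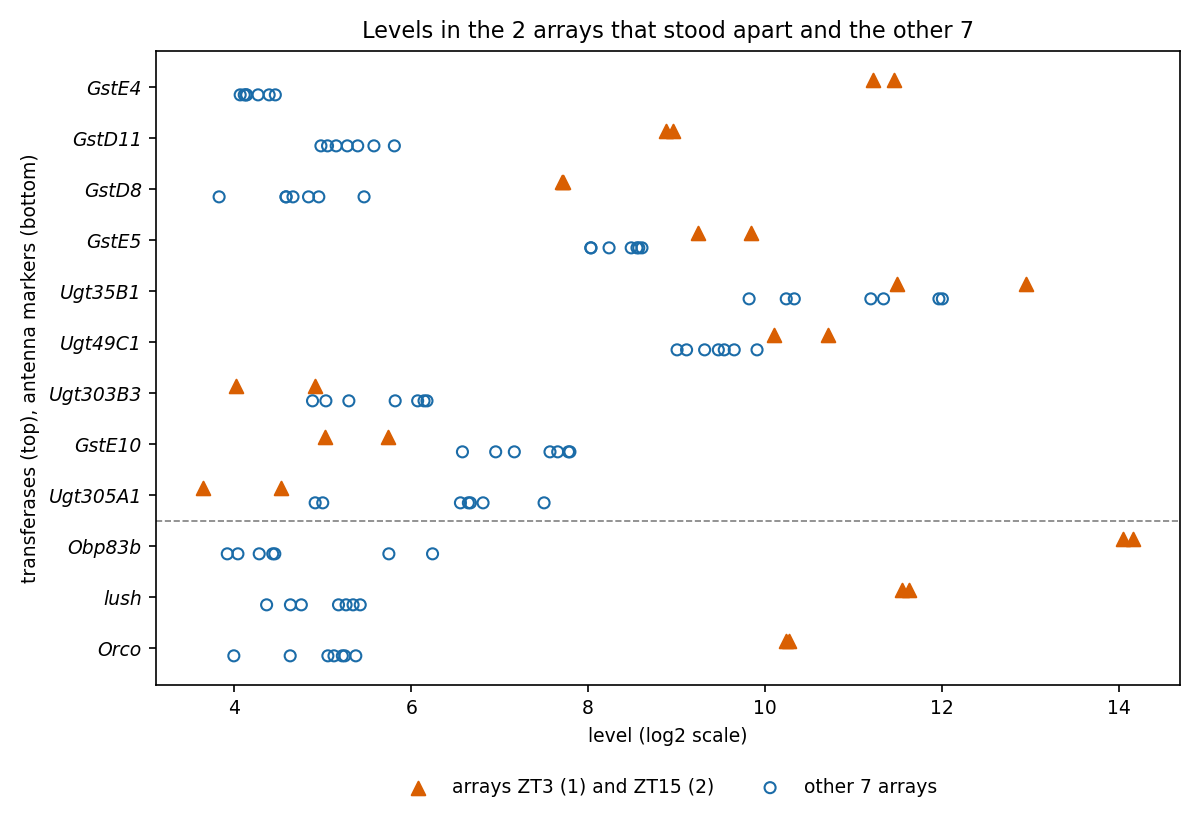
Level on the log2 scale (x axis) of 9 transferases and 3 antenna markers (rows), with triangles for ZT3 replicate 1 and ZT15 replicate 2 and open circles for the other 7 arrays. For GstE4, GstD11 and GstD8, as for Obp83b, lush and Orco, the triangles lie far to the right of all circles, while GstE10 and Ugt305A1 lie lower on the 2 arrays and Ugt303B3 and Ugt35B1 overlap.

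At the other end stood the members with the narrowest ranges. GstE12 ranged over 0.36 log2 units across all 9 arrays, from 13.84 to 14.20, and GstE9 over 0.38, from 12.26 to 12.63. Of the UGTs, Ugt316A1 ranged over 0.52, from 9.39 to 9.90, and Ugt36D1 over 0.61, from 9.19 to 9.80. The median range over the 50 tested members was 1.17 on 9 arrays and 0.61 on the 7 that resembled each other, against 0.86 and 0.58 for all tested probe sets. The 50 include Ugt37A3, GstE4 and GstD8, which would not have passed the filter without the 2 arrays where they are high. Their ranges on 9 arrays are therefore not independent of the filter. Ugt316A1 had the lowest amplitude of the tested members with the block, 0.02. Ugt36D1 sits beside Ugt36F1 on chromosome 2L and was at 9.47, 9.75 and 9.74 at ZT3, 9.52 at ZT7, 9.19 at ZT11, 9.33 and 9.37 at ZT15, 9.42 at ZT19 and 9.80 at ZT23 (amplitude 0.24, peak at ZT0.451, limma adjusted p = 0.240). Its range was that of the 7 arrays alone, close to the medians given for those, and its unadjusted rhythm p was 0.0187.

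The omega and theta classes held no gene called rhythmic with the block. GstO1, GstO2 and GstO3 ranged over 0.76, 0.47 and 0.52 and lay higher on the 2 arrays apart, and GstT1, GstT2, GstT3 and GstT4 ranged over 0.57, 0.54, 0.46 and 0.76. On the 7 arrays GstT4 ranged over 0.71, above the medians of 0.61 and 0.58. None of these 7 genes had an unadjusted rhythm p under 0.05 with the block. GstO2 had another probe set that was tested, whose ZT15 minus ZT3 difference without the block was 0.05, against -0.06 for the first, and neither was called. The sigma-class GstS1, the GST of flight muscle, was at 12.26 at ZT11 and at 11.16 to 11.60 on the other 8 arrays, with a fitted peak at ZT12.0 (adjusted p = 0.353). The 19 members below the filter, 16 UGTs and 3 GSTs (GstD4, GstD6 and GstD7), reached at most 5.56, a reading of Ugt35E2 on ZT3 replicate 1.

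The zeta GSTs carry out, in mammals, a step of tyrosine breakdown between homogentisate dioxygenase and fumarylacetoacetase, so the enzymes of that route were read beside them. Of the 4 tested, 1 was called rhythmic with the block, beside 0.248% of all tested probe sets, and 3 had an unadjusted p under 0.05, beside 16.9%. All 4 had a lower fitted value at ZT15 with the block, beside 63.7% of all tested probe sets, with a median difference of -0.50 against -0.07. Hpd, 4-hydroxyphenylpyruvate dioxygenase, was at 13.38, 12.72 and 12.64 at ZT3, 12.76 at ZT7, 12.16 at ZT11, 11.82 and 12.43 at ZT15, 11.91 at ZT19 and 12.41 at ZT23. Its amplitude with the block was 0.49 ± 0.045 (SE), a 1.98-fold span, with the peak at ZT4.36 ± 0.451 h (limma adjusted p = 0.0286). The call was lost in each of the 9 fits that left out 1 array (adjusted p = 0.0542 to 0.167).

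The homogentisate dioxygenase gene hgo was at 9.31, 8.87 and 8.70 at ZT3, 8.71 at ZT7, 8.40 at ZT11, 8.20 and 8.78 at ZT15, 8.24 at ZT19 and 8.53 at ZT23. Like Hpd and GstZ2, it was lowest at ZT15 among the 7 arrays and lower at ZT15 than at ZT3 on the 2 arrays apart, with an amplitude of 0.30 and a peak at ZT4.26 (limma adjusted p = 0.0840). Tat, the aminotransferase that opens the route, had an amplitude of 0.32 and a peak at ZT5.95 (adjusted p = 0.252), and Faa, the fumarylacetoacetase that closes it, 0.13 and ZT4.28 (adjusted p = 0.363). Differences in amplitude or phase between these genes and the zeta GSTs were not tested.

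**Figure D5:**
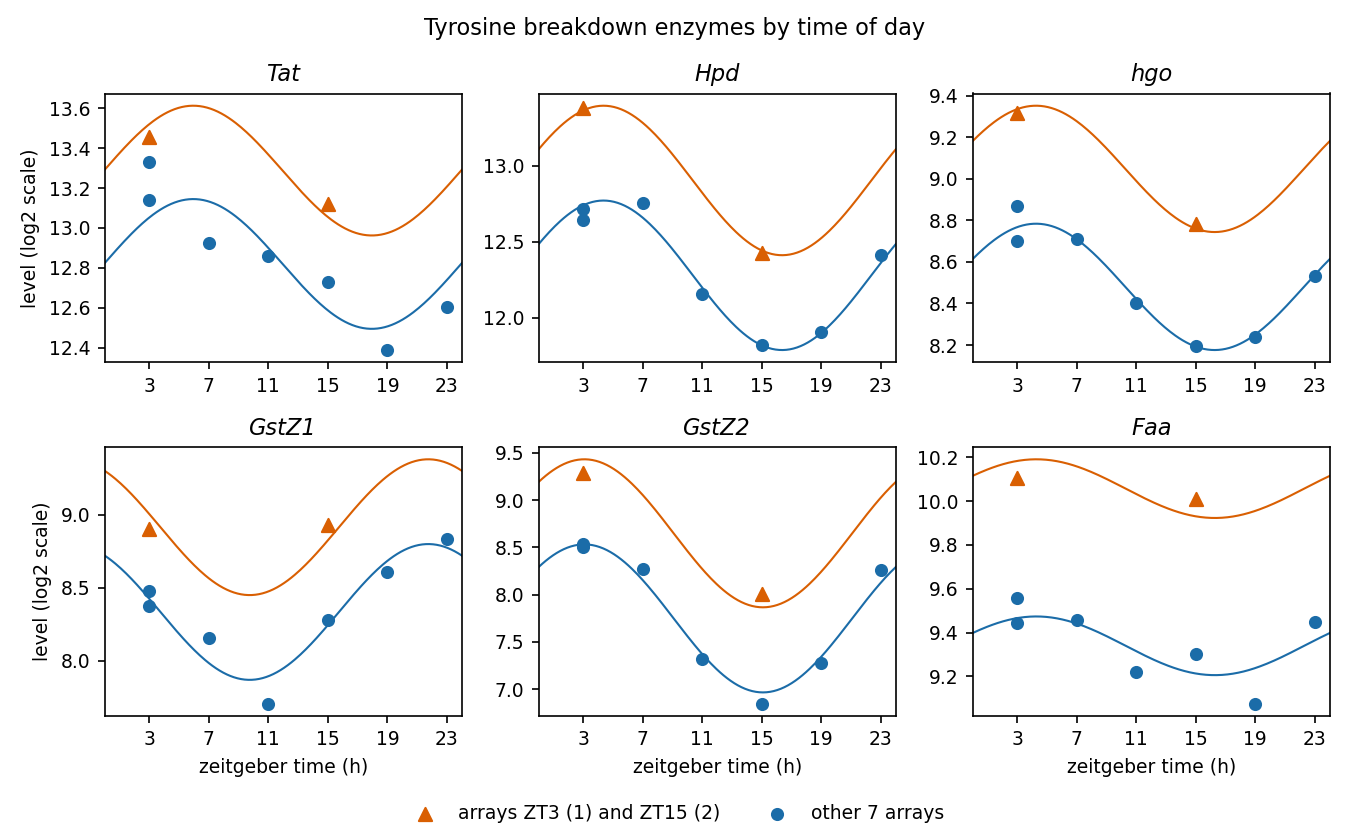
Level on the log2 scale (y axis) against zeitgeber time in hours (x axis) for the tyrosine breakdown genes Tat, Hpd, hgo and Faa and the zeta GSTs GstZ1 and GstZ2. Triangles are ZT3 replicate 1 and ZT15 replicate 2, circles the other 7 arrays and lines the fitted curves with the 2-array block; Hpd, hgo and GstZ2 were lowest at ZT15, and GstZ1 was lowest at ZT11.

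Of the other pathway genes none was called. Over 6 lists (tyrosine breakdown, regulators of detoxification genes, glutathione supply, UDP-sugar supply, efflux transporters and GST-related genes under other names), 25 genes were tested, and UGP, which makes UDP-glucose, passed the filter only through the 2 arrays apart (5.88 and 5.57, against 3.63 to 4.08). Of the other 24, 1 was called rhythmic with the block (Hpd), beside 0.248% of all tested probe sets, and 8 had an unadjusted p under 0.05, beside 16.9%. With the block 21 of the 24 (87.5%) had a lower fitted value at ZT15, beside 63.7%, with a median difference of -0.16 against -0.07. Keap1, the inhibitor that holds the regulator CncC in the cytoplasm, was at 8.50, 8.19 and 8.13 at ZT3, 7.93 at ZT7, 7.46 at ZT11, 7.46 and 8.21 at ZT15, 7.47 at ZT19 and 7.85 at ZT23. Its amplitude with the block was 0.31, with a peak at ZT3.23 (limma adjusted p = 0.181), and that of maf-S, the partner of CncC, was 0.12 (adjusted p = 0.340).

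In the supply of substrates, sgl, which makes UDP-glucuronic acid from UDP-glucose, had an amplitude of 0.20 with a peak at ZT5.29 (limma adjusted p = 0.236). Gclc, the catalytic subunit of the first enzyme of glutathione synthesis, peaked at ZT19.5 with an amplitude of 0.20 (adjusted p = 0.237). Trxr1, the thioredoxin reductase that also recycles glutathione in flies, had an amplitude of 0.16 (adjusted p = 0.367). The efflux transporters Mdr49 and MRP had amplitudes of 0.19 and 0.07 (adjusted p = 0.218 and 0.461). Of the GST-related genes, the omega-class eye-pigment gene sepia (se) was at 10.16, 9.50 and 9.53 at ZT3, 8.76 at ZT7, 8.66 at ZT11, 8.83 and 10.13 at ZT15, 8.98 at ZT19 and 9.70 at ZT23 (amplitude 0.44, peak at ZT23.4, adjusted p = 0.237). The microsomal GST-like gene Mgstl stayed between 12.52 and 12.96 (amplitude 0.11, adjusted p = 0.470).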

How the data were processed

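The authors' expression values came from GCRMA, per the submitters' processing notes; no version or setting is stated there. The deposited intensities, 1 per probe set and array, are exponentiated: their natural log rose with log2 spike-in concentration with a slope of 1.06 ± 0.0624 (SD, 9 arrays), against 1.53 for their log2, which reached 22.95. The natural log was therefore taken as the authors' log2 value; with log2 of the deposited values, folds would be those given here to the power of 1.44. Of 18952 probe sets, 183 were controls, 13647 named 1 gene, 402 several and 4720 none here; names came from the platform annotation, updated by identifier with a RefSeq table (13544 matched). Array medians lay between 6.05 and 6.65; the number of arrays limits the precision.

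Probe sets reaching 5 on at least 2 arrays (12105) were fitted with limma 3.58.1 in R 4.3.3, after a test on simulated data. ZT15 was compared with ZT3 over 6 group means, and a 24 h cosine and sine were tested by moderated F. P-values are two-sided and adjusted by Benjamini-Hochberg over these probe sets. The same fits were run with the 2-array block. Members, lists and the block were chosen with earlier results of these data known. Named were the markers Ugt35B1, Ugt36F1, Ugt305A1 and GstZ2, called members, the 5 of smallest p and those of widest (4) and narrowest (2) range in each family, and up to 2 genes a pathway list; other members appear after their values were seen. Replicate numbers do not pair ZT3 with ZT15: deviations from the group means correlated at -0.865 and -0.812 between like numbers. No sequences are printed. Alternatives are in the closing section.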

Additional observations from a re-analysis of the deposited data

How the results depend on the processing

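Without ZT3 replicate 1 and ZT15 replicate 2 together, 11 members and 2190 probe sets were called between ZT15 and ZT3, on 1 residual degree of freedom, against 0 and 0 over all 9 arrays, where 284 probe sets had an unadjusted p under 0.05. With the 2-array block the comparison called 0, but 4 members and 204 probe sets once arrays were also centred on their medians, and 0 to 11 members and 0 to 2190 probe sets when 1 array was left out; the cause was not tested. Centring shifted each ZT15 minus ZT3 difference with that block by -0.134, which turned 4 of the tested members with differences near 0 (GstE14, GstE4, GstO1 and Ugt317A1, -0.0484, -0.128, -0.0225 and -0.114 after it). The replicate block gave 0 members and 0 probe sets called, and 23 probe sets with an unadjusted p under 0.05. The 24 h rhythm called 0 members and 4 probe sets over all 9 arrays. It called 3 members and 30 probe sets with the 2-array block, 3 and 68 with those arrays left out, 5 and 68 with the testis covariate, and 7 and 1177 with array weights, whose estimation stopped before convergence. It called 0 probe sets on 1 mean per time, 1 after median centring and 2 to 11 without single arrays. With the block, 13 probe sets were called after quantile normalization, 16 after centring and 2 to 68 without single arrays, and 0 to 3 members without single arrays; Ugt36F1 lost its call after quantile normalization and centring (adjusted p = 0.0658 and 0.0873), and Hpd too (0.0542 and 0.0513). Ugt302C1 gained a call with no filter (0.0495) and with the mean of a gene's probe sets (0.0450). Of 1232 values of single genes under alternatives, 1139 kept direction and side of the threshold, 50 gained a call, 33 lost one and 10 turned: without the block UGP's peak moved by over 6 h (amplitude 0.0547 with the testis covariate, 0.0031 after quantile normalization, 0.0393 to 0.268 in 4 of the fits without single arrays, whose amplitudes ran from 0.0393 to 0.414 in all), and the ZT15 minus ZT3 difference ran from -0.453 to 1.59 for GstE10 and from -0.978 to 0.239 for GstE5 without single arrays. Taking log2 of the deposited values changed none of the counts of calls without the block.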
